A study of Mus musculus with 6 samples.

Results

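The integrated stress response and the cytosolic tRNA synthetases were followed in mouse liver as a listed group of 38 genes, 12 of them synthetases. For each gene the probe set with the highest mean over the 6 arrays was kept among probe sets annotated to that gene alone. This found 37 of the 38 genes, out of 18193 genes named on the array and 12598 whose signal passed a filter on dim probe sets. All 37 passed that filter, and Eif2s1, which encodes the eIF2 alpha subunit, was not analysed here for want of a probe set with 1 symbol. The methionyl synthetase gene Mars is on the array under the symbol Mars1.

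Liver RNA of 6 male mice was hybridized to Affymetrix arrays, 3 wild-type mice (WT) and 3 mice with a liver knockout of Chrebp (ChLO). ChREBP, now named Mlxipl, is a transcription factor that responds to carbohydrate and drives genes of glycolysis and fat synthesis. ChLO animals carried floxed Chrebp together with albumin-Cre, a promoter active in hepatocytes, so that liver cells without the Cre keep the gene. Both groups were 12 weeks old and then ate a diet containing 60% sucrose for 1 week, and no mice on another diet were analysed here. The labels describe the WT mice only as wild type and name neither the background strain nor litters.

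In the integrated stress response, kinases such as PERK (Eif2ak3) and GCN2 (Eif2ak4) phosphorylate eIF2 alpha when unfolded protein or uncharged tRNA builds up. General translation slows, while the mRNA of the transcription factor ATF4 is translated more. ATF4 and its C/EBP-family partners then switch on genes for amino acid synthesis and transport, for charging tRNAs, and for feedback on the response itself. Since ATF4 is controlled largely at translation, a transcript array reads its targets but neither its protein nor the phosphorylation of eIF2 alpha. The cytosolic tRNA synthetases attach amino acids to tRNAs, and many of them are ATF4 targets.

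ATF4 acts through the C/EBP-ATF response element, whose core TGATGNAA was searched on both strands from 250 bases before to 50 after each annotated start, in RefSeq promoters of the GRCm38.p6 build. Promoters were found for 30 of the 37 genes, 22 of the stress response and 8 synthetases. The core lay in the window of 12 of them, and in 12 of their 34 windows (35.3%), against 3.97% of all 32851 windows. It was present in Asns, Atf3, Chac1, Nupr1, Slc7a11, Trib3 and Vldlr, and among the synthetases in Aars, Gars, Iars, Tars and Yars. The palindromic CRE TGACGTCA was found in 1 of the 30 genes, Ppp1r15a, against 1.79% of all windows, and the E box CACGTG in 4, Aars, Iars, Nupr1 and Tars, against 7.15%. A match describes these letters and does not show that a factor binds there. Stretches around the core are printed for the 4 genes that had an unadjusted p under 0.05 between ChLO and WT and a core before the start; Nupr1, Atf3 and Asns read higher in ChLO and Tars lower. Each is written 5′ to 3′ on the gene's strand, which is the minus strand for all 4, with the match in capitals; TTGCATCA is the core read on the opposite strand.
Nupr1, chr7:126625528-126625625: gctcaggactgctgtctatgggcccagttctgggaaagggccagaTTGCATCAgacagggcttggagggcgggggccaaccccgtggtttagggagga
Atf3, chr1:191183391-191183488: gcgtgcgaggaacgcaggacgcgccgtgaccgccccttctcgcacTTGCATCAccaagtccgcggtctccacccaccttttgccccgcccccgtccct
Asns, chr6:7693210-7693277: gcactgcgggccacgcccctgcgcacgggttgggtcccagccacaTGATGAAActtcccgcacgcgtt
Tars, chr15:11399659-11399718: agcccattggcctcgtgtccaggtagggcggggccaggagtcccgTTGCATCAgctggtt
Counted from the annotated start, the core begins at position -110 in both Nupr1 and Atf3, at -23 in Asns and at -15 in Tars.

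Deletion of Chrebp was read first. Mlxipl had log2 signals of 12.61, 12.56 and 12.59 in WT 1, 2 and 3 and of 10.34, 11.22 and 11.48 in ChLO 1, 2 and 3, a difference of -1.57 (SE 0.28) with a limma adjusted p of 0.185. Every ChLO array lay below every WT array, ChLO 1 the lowest. Whether this probe set falls inside the deleted exons is not known here, so the reading is only a partial check of the labels. Array medians ran from 6.38 to 6.60 and correlations between arrays from 0.894 to 0.954 over the genes tested. The 18 probe sets of the hybridization spike-in controls averaged 12.83 to 12.90 in WT and 12.49 to 12.78 in ChLO. The difference between the 3′ and 5′ control probe sets of Actb, a reading of RNA quality, spanned 1.13 to 1.38 over the WT arrays, with ChLO 1 at 0.84, ChLO 2 at 1.04 and ChLO 3 at 1.46.

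Across the group, ChLO 1 and ChLO 2 read above WT for most genes and ChLO 3 did not. Of the 37 genes, 29 had a higher mean in ChLO (78.4%, against 56.5% of all genes tested) and 8 a lower one. The median difference between ChLO and WT was 0.40 on the log2 scale, against 0.06 over all genes tested, and single genes ran from -1.15 (Stc2) to 3.79 (Nupr1). In bulk liver, fewer cells of a type and less RNA per cell cannot be told apart. None of the 37 had a limma adjusted p under 0.05, nor did any of the 12598 genes (0.00%), the smallest adjusted p over all genes being 0.0528. At an unadjusted limma p under 0.05, 8 of the 37 were higher (21.6%, against 5.46% of all genes) and 1 lower (against 3.50%). All 3 ChLO arrays lay above all 3 WT arrays for 7 genes (18.9%, against 9.04% of all genes), and below them for 2 (against 6.19%). The genes were listed with earlier results of these data known, so these shares describe the list and do not test it.

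The ChLO arrays differed from each other when each was set against the WT range. ChLO 1 lay above all WT arrays for 30 of the 37 genes (81.1%, against 38.8% of all genes tested) and below them for 5 (29.2% of all genes). ChLO 2 lay above for 22 (59.5%, against 31.5%) and below for 3 (25.0% of all genes). ChLO 3 lay above for 7 (18.9%, against 31.0%) and below for 19 (51.4%, against 24.0%). So ChLO 3 was the array in which these genes most often lay outside the WT range on the low side. Relative to the WT mean, the median over the 37 genes stood at 0.97 for ChLO 1, 0.40 for ChLO 2 and -0.17 for ChLO 3, with the WT arrays between -0.05 and 0.10. ChLO 1 was the highest of the ChLO arrays for 29 genes (78.4%, against 39.6% of all genes), and ChLO 3 the lowest for 29 (78.4%, against 39.6%). The low rank of ChLO 3 was not particular to these 37 genes. In related lists described below, ChLO 3 was the lowest for 88.9% of 9 amino acid transporters and 85.7% of 7 other cytosolic synthetases. The share was 100% for 3 synthetase scaffolds, 76.9% for 13 endoplasmic reticulum chaperones and degradation factors and 66.7% for 15 other ATF4 targets. For 9 other eIF2 kinase and eIF2B genes it was 44.4%, and for 16 mitochondrial synthetases 31.2%.

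**Figure D1:**
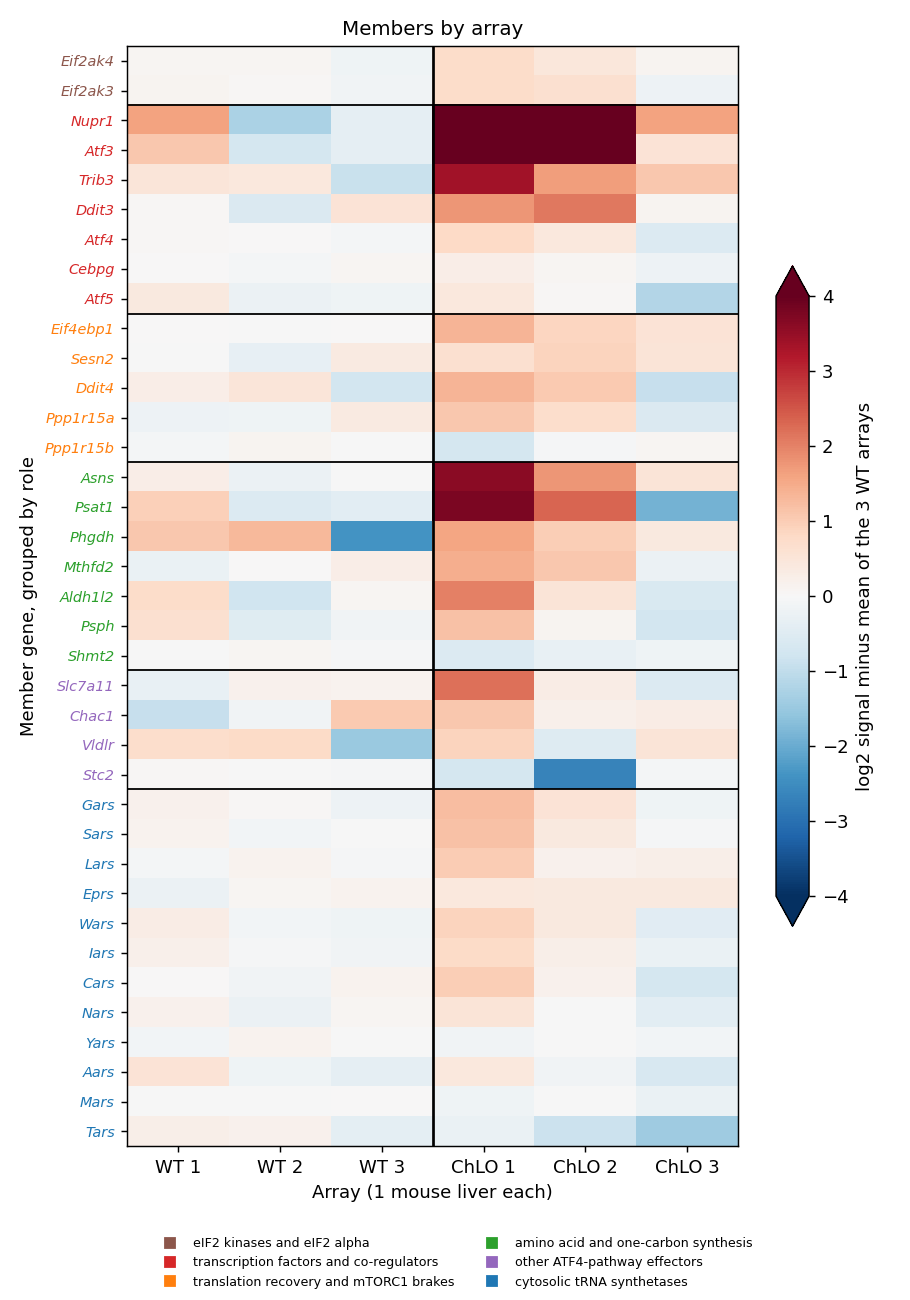
Log2 signal minus the mean of the 3 WT arrays for the 37 genes (rows, grouped by role) on the 6 arrays (columns), with colour running from -4 to 4 and deeper values drawn at the limit. The columns of ChLO 1 and ChLO 2 are mostly red, with Nupr1 and Atf3 deepest, and that of ChLO 3 is pale or blue for most genes.

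**Figure D2:**
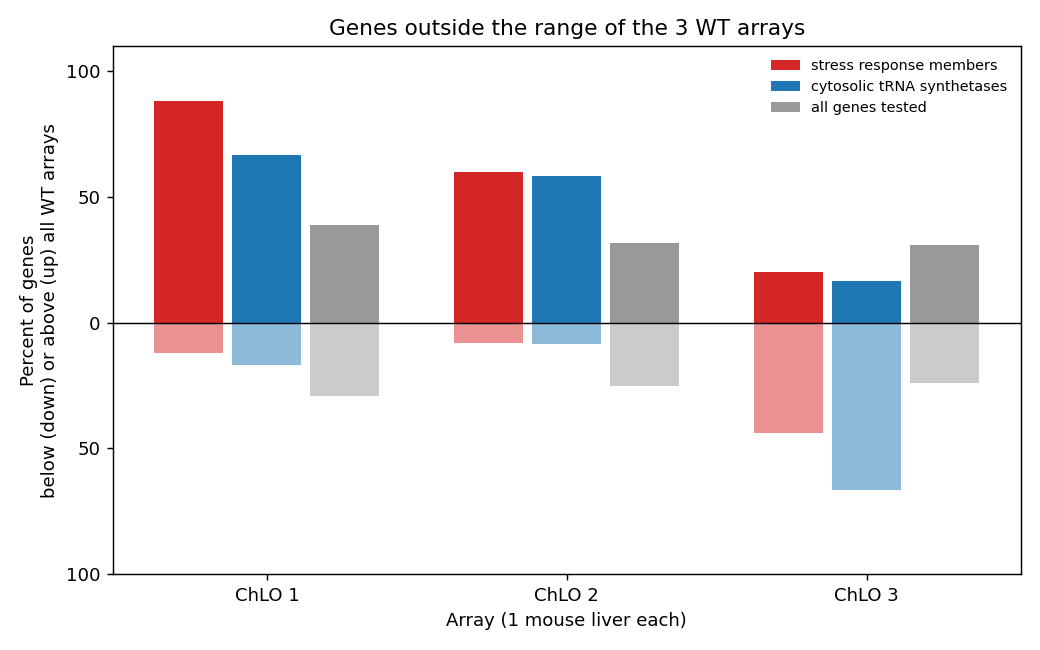
Percent of genes above (upward bars) or below (downward, paler bars) all WT arrays in each ChLO array, for the stress response genes, the synthetases and all genes tested. In ChLO 1 the upward bar of the stress response genes reaches 88.0%, and in ChLO 3 the downward bar of the synthetases reaches 66.7%.

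Leaving out ChLO 3 changed what passed. Then 6 of the 37 genes had an adjusted limma p under 0.05, all higher in ChLO, when 1.60% of all genes passed in that direction and 0.802% in the other. They were Atf3 (4.66, SE 0.50, adjusted p = 0.0134), Ddit3 (1.95, SE 0.33, 0.0318), Eif4ebp1 (1.12, SE 0.19, 0.0340), Nupr1 (4.89, SE 0.86, 0.0354), Asns (2.69, SE 0.48, 0.0354) and Psat1 (3.05, SE 0.56, 0.0392). Nupr1 passed the filter only through its ChLO arrays, with a WT mean of 5.10 below the filter at 5.50. Its difference and p-value are therefore uncertain. In the same fit 15 genes were higher at an unadjusted p under 0.05, when 12.4% of all genes were, and 22 had both remaining ChLO arrays above all WT arrays (59.5%, against 23.3% of all genes). Without ChLO 1, by contrast, 20 of the 37 genes were higher and the median difference was 0.06, against 0.06 over all genes as well. At an unadjusted limma p under 0.05, 5 of the 37 genes were higher without WT 1 (3.85% of all genes) and 3 without WT 2 (4.12%). Without WT 3 there were 8 (3.47%), without ChLO 1 there were 5 (3.09%) and without ChLO 2 there were 4 (2.77%). None of the 37 was lower at that limma threshold without WT 1, WT 2 or ChLO 2, where 2.68%, 2.44% and 2.79% of all genes were. All ChLO arrays lay below WT for 4 genes without WT 1 (10.1% of all genes) and for 4 without ChLO 2 (8.64%), shares near that of all genes. With limma array weights, which count arrays that stray from their group less, 5 genes passed after adjustment, Atf3, Eif4ebp1, Nupr1, Ddit3 and Asns, when 2.62% of all genes passed upward. The estimate of these weights stopped before converging. Weighted differences of Atf3 (4.625), Nupr1 (3.997), Eif4ebp1 (0.895), Asns (1.857) and Ddit3 (1.896) lay near the single array ChLO 2. Relative to the WT mean, ChLO 2 read 4.94, 3.97, 0.87, 1.78 and 2.12 in these genes, so the weighted calls lean largely on that array.

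The 2 eIF2 kinases measured, both upstream of the response, read slightly higher in ChLO without passing. PERK, the kinase of the endoplasmic reticulum encoded by Eif2ak3, read 9.85, 9.80 and 9.60 in WT and 10.48, 10.40 and 9.56 in ChLO, a difference of 0.40 (SE 0.27, limma adjusted p = 0.661). ChLO 1 and ChLO 2 lay above WT and ChLO 3 below it, so the groups overlapped. GCN2, the kinase that senses uncharged tRNA (Eif2ak4), read 7.43, 7.42 and 7.17 in WT and 8.07, 7.78 and 7.44 in ChLO (0.43, SE 0.27, limma adjusted p = 0.651). Its ChLO arrays all lay above WT, ChLO 3 narrowly.

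Among 7 transcription factors and co-regulators, 6 were higher in ChLO (85.7%, against 56.5% of all genes), with a median difference of 1.34. At an unadjusted limma p under 0.05, 4 were higher (57.1%, against 5.46% of all genes), among them Nupr1, whose limit is given below. Set against the WT mean, ChLO 1 had a median of 1.78 over these genes, ChLO 2 of 1.66 and ChLO 3 of 0.12. Nupr1, a stress-induced nuclear protein that acts with other transcription regulators, read 6.72, 3.83 and 4.75 in WT and 10.91, 9.07 and 6.70 in ChLO. ChLO 1 and ChLO 2 were far above WT, while ChLO 3 read just under the highest WT array, and the WT mean of 5.10 lay below the filter at 5.50. The gene thus passed the filter through its ChLO arrays, and WT signals this dim are uncertain, so no fold against WT is given; the ChLO mean of 8.89 was 10.5-fold above the filter level. The fitted difference was 3.79 (SE 1.10, limma adjusted p = 0.449), and 3.14 on the gene's other probe set. There, too, WT was dim, with WT 2 at 4.48 and WT 3 at 3.88 below the filter level. Without Nupr1, 28 of the other 36 genes were higher, 7 of them at an unadjusted limma p under 0.05, with a median difference of 0.40. Atf3, a stress transcription factor downstream of ATF4, read 7.71, 5.94 and 6.28 in WT and 11.02, 11.58 and 7.19 in ChLO. Again ChLO 1 and ChLO 2 stood above WT and ChLO 3 within it. Atf3 differed by 3.29 (95% interval 0.81 to 5.78; 9.78-fold higher; limma adjusted p = 0.468).

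Trib3, a pseudokinase that dampens ATF4 signalling, read 7.36, 7.31 and 6.0 in WT and 10.25, 8.55 and 7.97 in ChLO. All ChLO arrays lay above all WT arrays, and the difference was 2.04 (95% interval 0.61 to 3.47; 4.11-fold higher; limma adjusted p = 0.455), with 2.15 on its other probe set. Ddit3 encodes CHOP, the factor tied to cell death under lasting stress, and read 8.83, 8.20 and 9.33 in WT and 10.57, 10.90 and 8.90 in ChLO. ChLO 3 lay inside the WT range and the other ChLO arrays above it, for a difference of 1.34 (95% interval 0.13 to 2.55; 2.53-fold higher; limma adjusted p = 0.532). The gene's other probe set read 6.23, 5.80 and 7.80 in WT and 6.86, 8.24 and 6.80 in ChLO (0.69). There only ChLO 2 lay above WT, with ChLO 1 and ChLO 3 within it. Atf4 itself read 11.69, 11.65 and 11.57 in WT and 12.43, 12.05 and 11.09 in ChLO. Its WT arrays were tight, ChLO 1 and ChLO 2 lay above them and ChLO 3 below, so that the mean difference was only 0.22 (95% interval -0.51 to 0.95; limma adjusted p = 0.837), and 0.34 on the gene's other probe set. Without ChLO 1 it was -0.07. Cebpg, a C/EBP partner of ATF4, differed by 0.04 (SE 0.17), and Atf5, an ATF4-related factor, by -0.24 (SE 0.39).

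**Figure D3:**
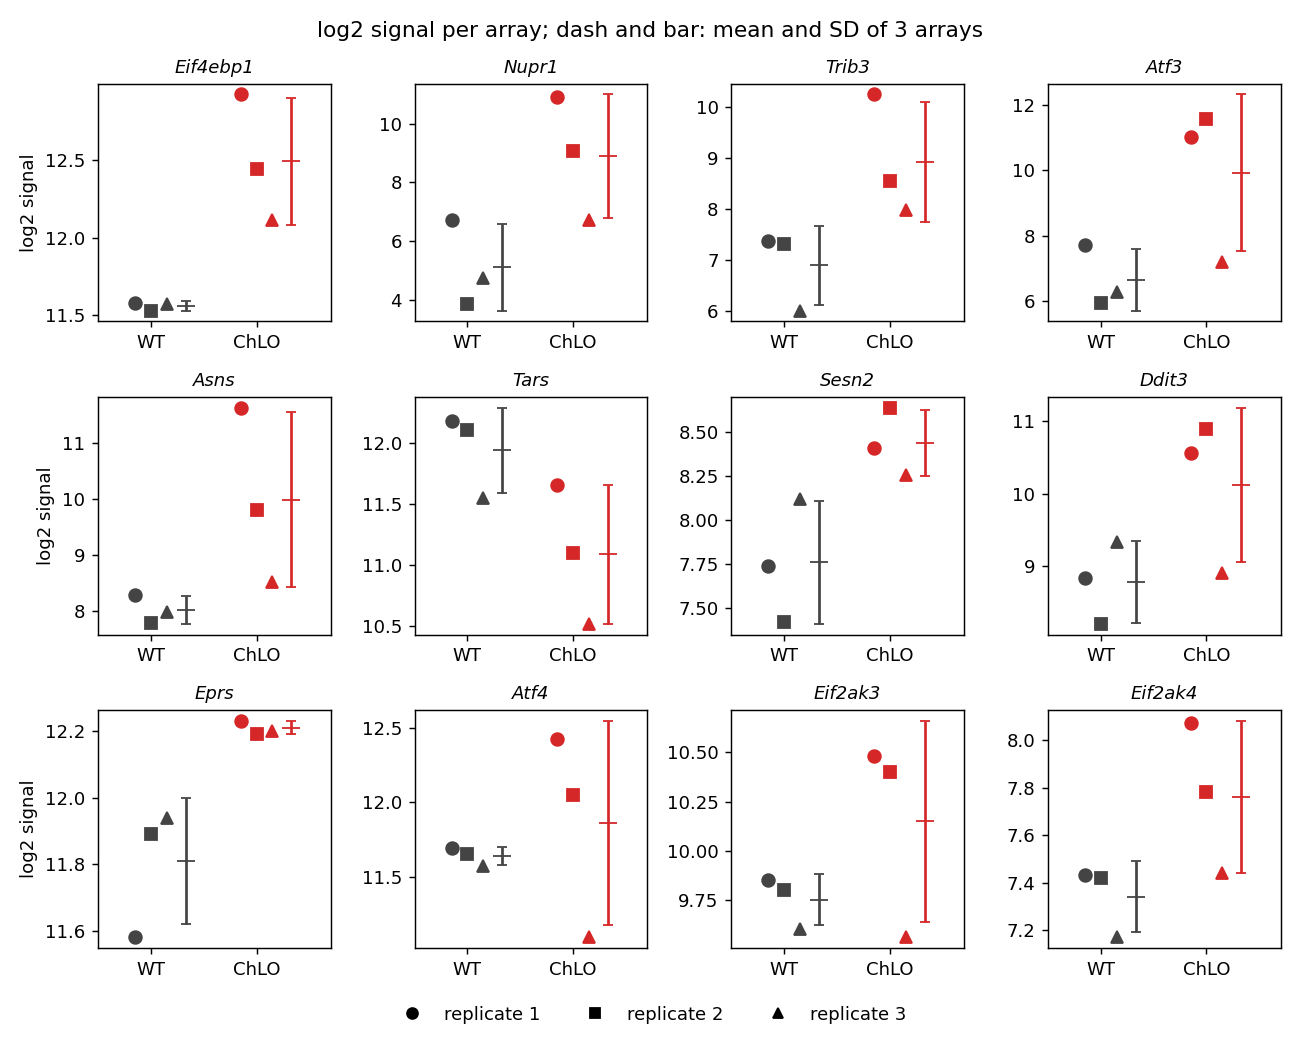
Log2 signal on each of the 3 WT and 3 ChLO arrays for the 9 genes with an unadjusted limma p under 0.05 and for Atf4, Eif2ak3 and Eif2ak4, with marker shape for the replicate number and a dash and bar for the mean and SD of 3 arrays; each panel has its own axis. For Atf3 and Ddit3 the triangle of ChLO 3 lies among the WT points, and for Eif4ebp1, Trib3, Asns, Sesn2 and Eprs all ChLO points lie above all WT points.

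Of the 5 genes that restore or restrain translation, 4 were higher, 2 of them at an unadjusted limma p under 0.05, with a median difference of 0.49. Eif4ebp1 encodes 4E-BP1, which binds the cap-binding factor eIF4E and holds back initiation. It read 11.58, 11.53 and 11.57 in WT and 12.92, 12.44 and 12.11 in ChLO. All ChLO arrays were above WT, whose arrays lay close together (SD 0.03). The difference of 0.93 (95% interval 0.42 to 1.43; 1.90-fold higher; limma adjusted p = 0.325) had the smallest p of the 37 genes. Its other probe sets gave 0.78 and 0.50, and leaving out single arrays gave 0.71 to 1.12, each time at an unadjusted p under 0.05.

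Sesn2, a leucine sensor that inhibits mTORC1, read 7.74, 7.42 and 8.12 in WT and 8.41, 8.64 and 8.26 in ChLO (0.68, 95% interval 0.08 to 1.28; 1.60-fold higher; limma adjusted p = 0.526). ChLO lay above WT on this probe set, ChLO 3 narrowly. The gene's other probe set turned the sign, with 7.64, 7.84 and 7.34 in WT and 7.50, 6.66 and 7.22 in ChLO (-0.48). Ppp1r15a, or GADD34, the induced subunit of the phosphatase that removes phosphate from eIF2 alpha, read 8.35, 8.35 and 8.90 in WT and 9.61, 9.24 and 7.96 in ChLO (0.40, SE 0.42). Ddit4, or REDD1, an mTORC1 inhibitor, read 9.41, 9.60 and 8.39 in WT and 10.49, 10.19 and 8.20 in ChLO (0.49, SE 0.60). In both genes ChLO 1 and ChLO 2 lay above all WT arrays and ChLO 3 below all of them. Ppp1r15b, the constitutive phosphatase subunit, differed by -0.23 (SE 0.22).

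Of 7 enzymes of amino acid synthesis and mitochondrial folate metabolism, 6 were higher in ChLO (85.7%, against 56.5% of all genes), with a median difference of 0.77. At an unadjusted limma p under 0.05, 1 was higher (14.3%, against 5.46% of all genes). Over these enzymes ChLO 1 had a median of 1.57 relative to WT, ChLO 2 of 0.99 and ChLO 3 of -0.22. Asns, asparagine synthetase and a textbook ATF4 target, read 8.29, 7.78 and 7.99 in WT and 11.62, 9.80 and 8.52 in ChLO. All ChLO arrays lay above WT, ChLO 1 by the widest margin. The difference was 1.96 (95% interval 0.40 to 3.51; 3.89-fold higher; limma adjusted p = 0.486). On its other probe set ChLO 3 read 6.94 within a WT range of 6.62 to 7.07, and the difference was 2.32.

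Psat1, a transaminase of serine synthesis, had the widest scatter of the 37 genes. It read 7.63, 6.14 and 6.27 in WT and 10.43, 9.02 and 4.80 in ChLO, a difference of 1.40 (SE 1.28, limma adjusted p = 0.740). ChLO 1 and ChLO 2 lay above WT and ChLO 3 below it, where 4.80 is also under the filter level of 5.50 and so uncertain. The gene's other probe set read 6.63, 5.84 and 6.51 in WT and 9.96, 8.43 and 2.07 in ChLO (0.49). Phgdh, the first enzyme of serine synthesis, read 8.66, 8.88 and 5.17 in WT and 9.14, 8.56 and 7.97 in ChLO (0.98, SE 0.91). On this probe set its difference rested on a low WT 3 and was -0.22 without that array. The other Phgdh probe sets gave 1.04, 1.58 and 1.0, with ChLO 1 above all WT arrays on each. On the first of them WT 3 was not low (6.72, 6.43 and 6.28 in WT). Mthfd2, a mitochondrial folate enzyme, read 6.82, 7.11 and 7.38 in WT and 8.54, 8.19 and 6.88 in ChLO (0.77, SE 0.45). Aldh1l2, another mitochondrial folate enzyme, and Psph, the last enzyme of serine synthesis, differed by 0.64 (SE 0.68) and 0.18 (SE 0.49).

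Shmt2, the mitochondrial enzyme that splits serine to charge folate, ran the other way. It read 11.45, 11.55 and 11.42 in WT and 10.92, 11.18 and 11.30 in ChLO, all ChLO arrays below all WT arrays, with a difference of -0.34 (95% interval -0.72 to 0.04; limma adjusted p = 0.590). Its other probe sets gave -0.59, -0.74 and 0.39, the last of opposite sign.

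The 4 other effectors were 3 higher and 1 lower, none at an unadjusted limma p under 0.05. Slc7a11, the cystine-glutamate exchanger, read 5.54, 6.02 and 5.98 in WT and 8.05, 6.13 and 5.30 in ChLO (0.65, SE 0.70), with ChLO 1 alone far above WT. Chac1, which degrades glutathione, read 7.35, 8.12 and 9.31 in WT and 9.33, 8.47 and 8.57 in ChLO (0.53, SE 0.49). Its groups overlapped over most of their range. Vldlr, a lipoprotein receptor, differed by 0.29 (SE 0.64) and had a low WT 3 at 6.35 against 8.53 and 8.58. Stc2, a secreted stress-induced glycoprotein, read 6.81, 6.76 and 6.73 in WT and 6.07, 4.11 and 6.68 in ChLO (-1.15, SE 0.66, limma adjusted p = 0.630). All ChLO arrays lay below WT, with ChLO 2 far down and ChLO 3 almost at the WT level, and the gene's other probe set gave 0.70.

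**Figure D4:**
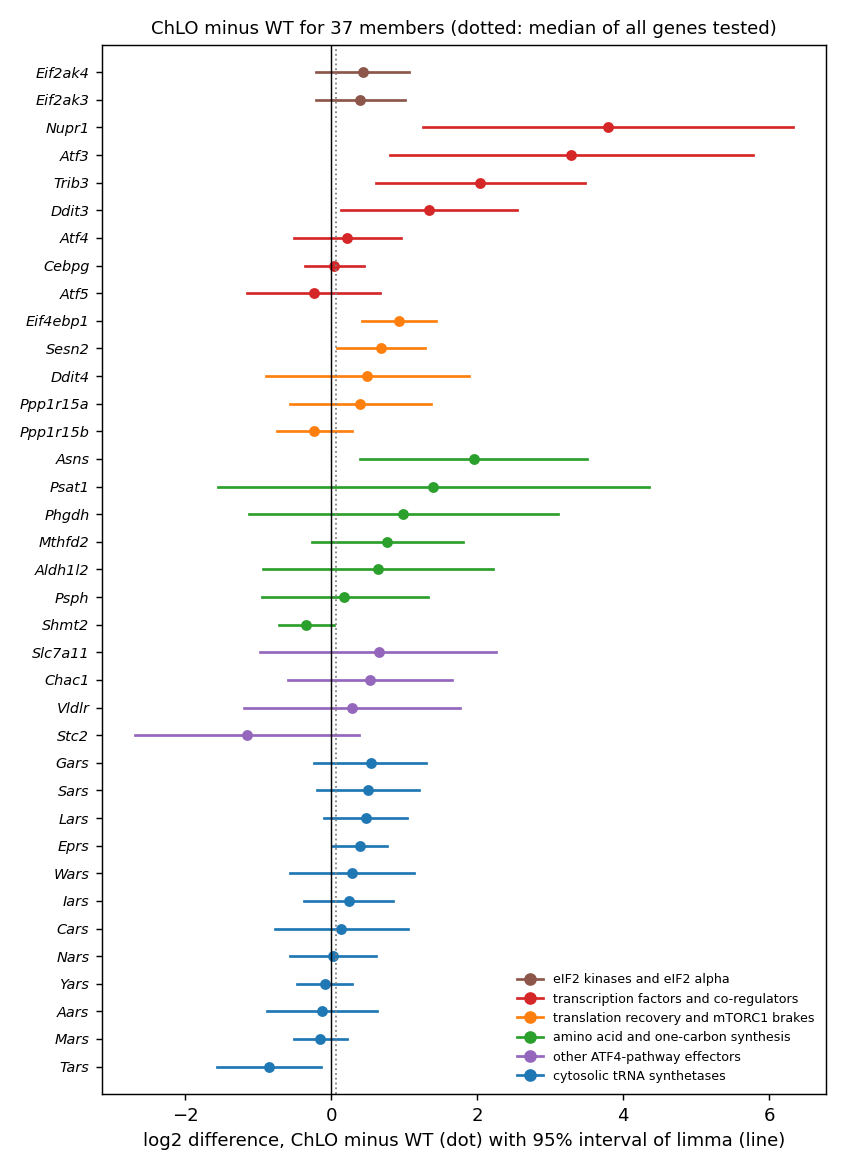
Difference between ChLO and WT (dot) with the 95% interval of limma (line) on the log2 scale for the 37 genes, coloured by role; the dotted line is the median of all genes tested at 0.06. The intervals of Nupr1, Atf3, Trib3, Ddit3, Eif4ebp1, Sesn2, Asns and Eprs lie above 0 and that of Tars below it, while the synthetases otherwise cluster near 0.

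Differences of the synthetases were smaller than those of the stress response genes and ran in both directions. Of the 12, 8 were higher (66.7%, against 56.5% of all genes) and 4 lower, with a median difference of 0.19. For the 25 stress response genes the median was 0.53, and 21 were higher (84.0%). The difference between these groups was not tested. The median of the synthetases relative to WT reached 0.63 on ChLO 1, 0.17 on ChLO 2 and -0.26 on ChLO 3. In ChLO 3, 8 of 12 lay below all WT arrays (66.7%, against 24.0% of all genes). Differences ran from -0.85 to 0.54, and 1 in each direction had an unadjusted limma p under 0.05. The 1 higher is 8.33% of the 12, near the share of all genes (5.46% higher and 3.50% lower).

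Eprs, the fused synthetase for glutamate and proline, read 11.58, 11.89 and 11.94 in WT and 12.23, 12.19 and 12.20 in ChLO. The ChLO arrays lay close together (SD 0.02) and all above WT, for a difference of 0.40 (95% interval 0.03 to 0.77; 1.32-fold higher; limma adjusted p = 0.535). Its other probe sets gave 0.45, 0.15 and 1.02. The groups overlapped on the probe set with 0.15 and on that with 1.02. On the latter, WT 2 read 3.94, below the filter at 5.50. Tars, the threonyl synthetase, read 12.18, 12.11 and 11.55 in WT and 11.66, 11.10 and 10.52 in ChLO. ChLO 1 lay within the WT range and ChLO 2 and ChLO 3 below it, for a difference of -0.85 (95% interval -1.56 to -0.14; 1.80-fold lower; limma adjusted p = 0.501). Lars, the leucyl synthetase, read 10.38, 10.58 and 10.39 in WT and 11.47, 10.63 and 10.68 in ChLO (0.47, SE 0.25, limma adjusted p = 0.600). All its ChLO arrays lay above WT, ChLO 2 and ChLO 3 only slightly.

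Gars, the glycyl synthetase, read 11.04, 10.93 and 10.67 in WT and 12.10, 11.44 and 10.71 in ChLO (0.54, SE 0.33). Sars, the seryl synthetase, read 10.32, 10.06 and 10.16 in WT and 11.36, 10.59 and 10.12 in ChLO (0.51, SE 0.30). Both stood above WT in ChLO 1 and ChLO 2 and inside the WT range in ChLO 3 on the chosen probe sets. On the other probe set of Sars all ChLO arrays lay above WT, with ChLO 3 at 10.23 against 9.94, 9.90 and 9.95 in WT (0.65). Wars (0.28, SE 0.37), Iars (0.24, SE 0.26), Cars (0.14, SE 0.39) and Nars (0.02, SE 0.25), for tryptophan, isoleucine, cysteine and asparagine, were higher in ChLO 1 and below all WT arrays in ChLO 3. Other probe sets did not all place ChLO 3 below WT. It lay within WT for Iars (9.56), below for Nars (11.07), and above (7.81), within (7.07) and below (5.87) for Wars. Yars (-0.09, SE 0.16), Aars (-0.13, SE 0.33) and Mars (-0.15, SE 0.15), for tyrosine, alanine and methionine, read slightly lower in the mean. Under scaling to the spike-in controls, which raised the median of all genes from 0.06 to 0.31, these 3 genes, Atf5 and Ppp1r15b turned positive, and 34 of the 37 genes were higher. The median of the 37 genes minus that of all genes was 0.34 under both scalings.

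Most genes with several probe sets gave the same direction on each. Of the 37 genes, 21 had further probe sets past the filter, 32 in all, and 29 of these had the sign of the chosen probe set. The 3 of opposite sign belong to Sesn2, Shmt2 and Stc2.

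**Figure D5:**
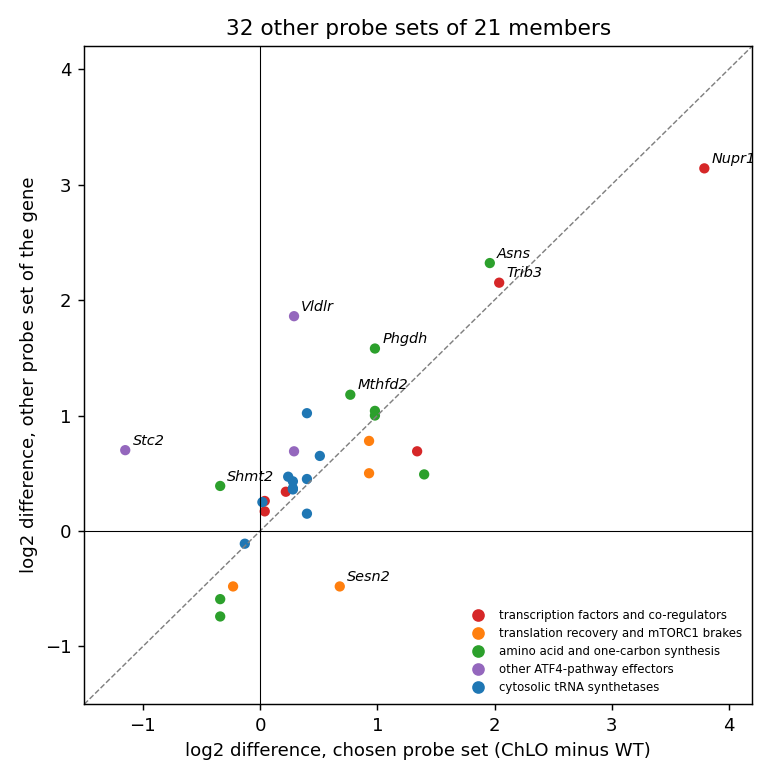
Log2 difference between ChLO and WT on the chosen probe set (horizontal) and on each of 32 other probe sets of the same gene (vertical) for 21 genes; the dashed line marks equality. Nupr1, Asns and Trib3 lie near the line at the upper right, and the probe sets of opposite sign, of Sesn2, Shmt2 and Stc2, lie at the upper left or lower right.

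Lists of related genes outside the group gave smaller medians. Of all genes tested, 56.5% were higher, with 5.46% higher and 3.50% lower at an unadjusted limma p under 0.05. Of 9 other eIF2 kinase and eIF2B genes 8 were higher with a median of 0.04, and 0 had an unadjusted limma p under 0.05; Eif2ak2, the kinase PKR, differed by 0.51 (SE 0.24) and Eif2b4 by 0.39 (SE 0.28). Of 15 other ATF4 targets 11 were higher, with a median of 0.26 and 1 at an unadjusted p under 0.05, which was lower. That gene, Nfil3, a transcription repressor, read 9.77, 9.36 and 10.01 in WT and 8.91, 8.38 and 8.18 in ChLO, with no overlap (-1.22, SE 0.27, limma adjusted p = 0.273). Mthfd1l, a mitochondrial folate enzyme, differed by 1.07 (SE 0.48). Of 9 amino acid transporters 7 were higher, with a median of 0.25 and 1 at an unadjusted p under 0.05. This was Slc7a5, the light chain of a leucine transporter, which read 6.24, 4.90 and 6.35 in WT and 8.13, 6.77 and 6.75 in ChLO, above WT on all arrays (1.39, SE 0.57, limma adjusted p = 0.540). Its partner Slc3a2 differed by 1.06 (SE 0.50).

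Of 7 other cytosolic synthetases 6 were higher, with a median of 0.14 and 0 at an unadjusted limma p under 0.05; Rars differed by 0.30 (SE 0.22) and Qars by 0.38 (SE 0.32). Of the 3 scaffolds of the multi-synthetase complex 2 were higher, Aimp2 by 0.30 (SE 0.25) and Aimp1 by 0.28 (SE 0.32). Among 16 mitochondrial synthetases, which are encoded apart from the cytosolic set, 10 were higher with a median of 0.15, and 1 was lower at an unadjusted p under 0.05. This was Fars2, the phenylalanyl enzyme, which read 11.12, 11.35 and 10.91 in WT and 9.92, 10.09 and 10.84 in ChLO, below WT on every array (-0.84, SE 0.26, limma adjusted p = 0.455). Nars2 differed by 0.25 (SE 0.21). The chaperones and degradation factors of the endoplasmic reticulum that the ATF6 and XBP1 arms control did not share the mean direction of the group. Of 13, 2 were higher (15.4%, against 56.5% of all genes) and 11 lower, with a median of -0.16. None had an unadjusted limma p under 0.05. Against the WT mean, their median was 0.08 on ChLO 1, -0.15 on ChLO 2 and -0.43 on ChLO 3. In ChLO 3, 8 of 13 lay below all WT arrays (61.5%, against 24.0% of all genes), a trait shared with the group. Edem1 differed by -0.40 (SE 0.17) and Sel1l by -0.27 (SE 0.16).

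Summed signals of stellate, myeloid and bile duct markers were above WT in ChLO 1 and ChLO 2 and not in ChLO 3. All 10 stellate and fibroblast markers were higher, 3 at an unadjusted limma p under 0.05 (30.0%, against 5.46% of all genes). Their linear signals summed to 6960 to 11300 on the WT arrays, 23100 on ChLO 1, 27000 on ChLO 2 and 8090 on ChLO 3. For 7 of 10 myeloid markers tested, 6 were higher, with WT sums of 9800 to 10500 and sums of 18800, 16400 and 9200 on the ChLO arrays. Bile duct markers, 6 of 9 tested and 5 higher, summed to 1610, 846 and 381 in ChLO and 290 to 440 in WT. The WT sums are dim and uncertain. Cldn4 read 5.33, 6.10 and 4.71 in WT, with WT 1 and WT 3 below the filter at 5.50, and 9.95, 8.09 and 6.33 in ChLO. It passed the filter through its ChLO arrays and is counted in the bile duct sums, and no sum without it was made. Such sums follow the brightest markers: marker by marker, ChLO 3 lay above all WT arrays for 3 of the 6 bile duct markers, among them Epcam, which in ChLO 1 lay within WT, and for 0 of the stellate and 0 of the myeloid markers. Endothelial markers, 8 of 8 tested and 6 higher, summed to 7220, 9840 and 7780 in ChLO and 7140 to 8310 in WT. Hepatocyte markers, 9 of 10 tested, were all lower, with a median of -0.34, and summed to 297000, 293000 and 375000 in ChLO and 367000 to 423000 in WT. Only 2 of 8 lymphocyte markers passed the filter, with sums of 164 to 334 in ChLO and 214 to 305 in WT. No marker has a signal of 0 on this scale. The part of these cell markers, of the Actb reading and of the spike-in level in the differences of the stress response genes and synthetases was not tested.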

How the data were processed

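The authors deposited 1 table of log2 signals for 45101 probe sets on 6 Affymetrix arrays; MAS5, a summary of each array on its own, is named without version in the submitters' processing notes. On the linear scale, the mean of every array was 500 after trimming 2% at each end, as its global scaling gives, so a shift common to most transcripts is hidden, and dim probe sets vary strongly. No quantile normalization or other step was recorded in the sources used here, and scanner files and detection calls were not used here.

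Of the probe sets, 64 were controls, 34945 had 1 symbol, 932 several and 9160 none. Probe sets under the 40th percentile of mean signal (5.50 log2 units, 45.2 linear) were left out, and each gene kept its probe set of highest mean. ChLO and WT were compared over 12598 genes with limma 3.58.1 in R 4.3.3 (lmFit, eBayes with a trend, no block), with Benjamini-Hochberg adjustment over all of them, a threshold of 0.05 and SE as the moderated standard error. The p-values measure the spread between mice, and 3 arrays a group limit the precision. The fit was also run on simulated data with independent noise for each gene. These data held no array that strays across many genes, so the run cannot speak to the spread between the ChLO arrays. The 38 genes and the lists of other genes were chosen with earlier results of these data known. Values per array are given for genes with an unadjusted p under 0.05, for genes whose groups do not overlap, for Atf4, Ddit3 and the eIF2 kinases, and for some others chosen after their values were seen (Mthfd2, Psat1, Phgdh, Slc7a11, Chac1, Vldlr, Ppp1r15a, Ddit4, Gars and Sars); other lists give at most the 2 genes with the smallest p. Same-numbered WT and ChLO arrays deviated with correlations of 0.30, -0.17 and 0.06, and were not treated as pairs. Alternatives were other normalizations, filters, variance models and probe sets, array weights, a replicate block and leaving out each array.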

Additional observations from a re-analysis of the deposited data

How the results depend on the processing

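Of 37 genes, those counted after adjustment stayed at 0 under every alternative except array weights (5) and leaving out ChLO 3 (6); over single arrays left out the count ran from 0 to 6. At an unadjusted limma p under 0.05, leaving out single arrays gave 3 to 15 genes higher (2.77% to 12.4% of all genes). It gave 0 to 2 lower (2.44% to 8.04% of all genes). All ChLO arrays lay above WT for 7 to 22 genes (12.7% to 23.3% of all genes) and below for 2 to 4 (8.64% to 16.0%). The median difference ran from 0.064 to 0.65. Spike-in scaling gave 0 lower at an unadjusted p under 0.05 (1.42% of all genes), 0 below WT (2.21%) and a median of 0.65, and turned Ppp1r15b (0.023), Mars (0.10), Atf5 (0.011), Yars (0.15) and Aars (0.12) positive. The 60th percentile filter left 1 gene below WT (6.53% of all genes) and tested 33 of the 37, so fewer could be counted. The mean of all probe sets gave 5 higher at an unadjusted p under 0.05 (4.78% of all genes) and 1 below WT (6.36%), and leaving out _s_at and _x_at probe sets gave 2 lower (3.48%). Array weights, whose estimate stopped before converging, gave 15 higher (14.9% of all genes) and 3 lower (9.96% of all genes) at an unadjusted p under 0.05 and turned Atf5 (0.008), Vldlr (-0.19) and Nars (-0.013). With the replicate block 0 of the 37 genes passed after adjustment, 6 were higher (6.29% of all genes) and 1 lower (4.28%) at an unadjusted p under 0.05, and the median was 0.40; Sesn2 and Eprs lost the unadjusted threshold, and no adjusted call changed. With single arrays left out, the difference changed sign in Aars (-0.40 to 0.15), Psph (-0.32 to 0.65), Cebpg (-0.058 to 0.16), Nars (-0.22 to 0.25), Phgdh (-0.22 to 1.64), Vldlr (-0.45 to 0.70), Ppp1r15b (-0.37 to 0.004), Aldh1l2 (-0.039 to 1.26), Slc7a11 (-0.13 to 1.24), Iars (-0.012 to 0.49), Wars (-0.032 to 0.65), Atf4 (-0.066 to 0.60), Cars (-0.27 to 0.56) and Atf5 (-0.56 to 0.23). Unless stated, the cause was not tested. Eif4ebp1 and Trib3 kept an unadjusted p under 0.05 in 17 of 17 alternatives, Nupr1 in 16 of 16, Asns and Atf3 in 15, Tars in 12, Ddit3 in 11, Sesn2 in 10 and Eprs in 9 of 17. Dim signals limit Nupr1 in WT, Psat1 in ChLO 3, Stc2 and Slc7a11, which lie near the filter.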
